A study of Mus musculus with 16 samples.

Results

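The peaks described here are the m6A peaks of the zinc finger genes whose mouse symbol is Zfp followed by a digit. A peak of an IP list was taken when it shared at least 1 base, on its own strand, with an exon of such a gene among the protein-coding genes of GENCODE M39. This gave 7911 of the 169564 listed peaks, or 4.67%, in a family of 419 genes that makes up 1.94% of 21594 protein-coding genes. The tissue was cortex next to the infarct, from C57BL/6J male mice that were 6 to 8 weeks old at surgery, with 6 mice per group in the study's methods. Sham mice had the surgery without occlusion, and the MCAO/R mice had the middle cerebral artery closed by a filament for 2 h and then reperfused before sampling, for 0 h (MCAO/R-0h), 6 h (MCAO/R-6h) or 24 h (MCAO/R-24h). In MeRIP-seq the RNA is fragmented, fragments carrying m6A are pulled down with an antibody (IP), and a peak is a stretch where IP reads exceed those of the input. Each group had 2 IP libraries with 1 deposited peak list each. Neither the labels nor the methods tie a library to particular mice, so the spread between replicates may be technical. Since the 8 libraries of input were not used here, fewer cells of a type, less RNA and less m6A per RNA cannot be told apart.

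The 8 lists held 18775 to 24078 peaks, with the shortest in Sham replicate 1 and the longest in MCAO/R-0h replicate 2. The paper reports far fewer confident peaks per sample than any of these lists holds. The shares and counts given here rest on all listed peaks and were not repeated on its confident set. The lists hold no read counts, so depth is unknown and no counting interval can be given. Among cell markers, the microglial genes Cx3cr1 and P2ry12 and the astrocyte gene Aqp4 had a peak in all 8 lists, Map2 of neurons in 7 and Mog of oligodendrocytes in 6, while of 4 genes of other organs Alb, Ins2 and Umod had none and Myh6 had 2 peaks in MCAO/R-0h replicate 2. Syn1, Snap25, Camk2a and Gfap, which are abundant in cortex, also had no peak, so a missing peak does not mark a missing cell type.

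C2H2 zinc fingers are short folds in which pairs of cysteines and histidines hold a zinc ion, and arrays of them read DNA base by base. Most Zfp genes code for such arrays, often in a single long exon at the end of the gene, and many also carry a KRAB box that recruits Trim28 and the H3K9 methyltransferase Setdb1 to silence retroelements and protect imprints. Neighbouring fingers are joined by a short conserved linker. The methyltransferase that deposits m6A on mRNA prefers the sequence RRACH (R is A or G, H is A, C or T), and long internal exons and the region around stop codons are known to carry much of the mark.

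The sequences below show what high-ranking Zfp peaks contained. They come from 9 of the 10 genes that led by score among those with a region in all 8 lists, since the region of Zfp451 lies outside the transcript used for placement, and they show the RRACH site closest to the middle of the bases that all 8 lists covered, with sites that end in T taken first. The site is in capitals. Coordinates are on GRCm39, and sequences are given 5′ to 3′ on the strand of the transcript. The sites of Zfp292, Zfp148, Zfp81, Zfp62, Zfp322a and Zfp445 lie in the coding sequence, those of Zfp871 and Zfp354c in the 3′ UTR, and that of Zfp260 in the 5′ UTR.
Zfp292, chr4:34811552-34811576, minus strand: ttctgctgctGGACTtggtactgat
Zfp148, chr16:33317348-33317372, plus strand: gtcccactttGGACTaatagtcggt
Zfp81, chr17:33553738-33553762, minus strand: aatcatgagaGAACTcataccggag
Zfp62, chr11:49106376-49106400, plus strand: gactgtagggGGACTtttcggagta
Zfp322a, chr13:23541089-23541113, minus strand: agccaccaaaGGACTcataccggtg
Zfp871, chr17:32992810-32992834, minus strand: cgggatttgtGAACTcttcattatc
Zfp354c, chr11:50705242-50705266, minus strand: agcaatttaaGGACTattacaaaca
Zfp260, chr7:29803877-29803901, plus strand: accacgagagAAACTgtaagaaaga
Zfp445, chr9:122682665-122682689, minus strand: atatggggaaGGACTcagaggcaca

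The coding sequence of the linker itself holds another RRACH match, AAACC. In Zfp81, Zfp354c and Zfp322a such a linker lay inside the bases covered by all 8 lists, and these are shown because the linker recurs between fingers in many Zfp genes. Capitals mark the linker word and the CC that follows.
Zfp81, chr17:33553807-33553833, minus strand: ttcacactGGAGAGAAACCgtatttat
Zfp354c, chr11:50705660-50705686, minus strand: tccatactGGAGAGAAACCctatcagt
Zfp322a, chr13:23541158-23541184, minus strand: ctcacacaGGTGAGAAACCgtttaagt
The word GGNGANAAA, read in frame on the coding strand, was present in the last coding exon of 256 of the 419 Zfp genes (61.1%), against 1.97% of other protein-coding genes and 3.12% of all of them. The sites of Zfp81 and Zfp322a printed above, GAACT and GGACT, are directly followed by the letters CATACC.

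Zfp genes carried m6A peaks more often than other genes. The share of Zfp genes with at least 1 peak was 63% and 70.2% in the Sham lists, 64.7% and 76.1% at MCAO/R-0h, 69.5% and 71.8% at MCAO/R-6h, and 69.2% and 73.3% at MCAO/R-24h. In other protein-coding genes it was 30.6% to 36.9%. The lowest Zfp value lay far above the highest of the other genes. The log2 ratio of the shares was 1.03 ± 0.05 (SD, n = 8 libraries), above 0 in 8 of 8 (two-sided exact sign-flip permutation test, p = 0.00781, the smallest it can give, adjusted p = 0.0104 over 8 tests). It was 0.47 against other genes with at least 1000 coding nt in the last coding exon and 0.35 among genes with a peak in at least 1 list. The groups overlapped, and their difference did not exceed the spread between replicates (exact permutation test over all divisions into 4 pairs, one-sided, p = 0.819). The lowest share came from the list with the fewest peaks and the highest from the list with the most, and with 18775 peaks taken from every list the mean was 66.3%.

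A marked Zfp gene also carried more peaks than a marked gene of another kind. The mean number of peaks per marked Zfp gene was 3.25 and 3.23 in Sham, 3.35 and 3.56 at MCAO/R-0h, 3.37 and 3.44 at MCAO/R-6h, and 3.38 and 3.46 at MCAO/R-24h. Each of the 6 MCAO/R lists was above both Sham lists. The test among groups gave p = 0.238 (exact permutation, adjusted p = 0.595 over 5 group results), and p = 0.0286 without MCAO/R-0h replicate 1. With any other library left out, p was 0.0952 to 0.590 in the same test. The Sham lists were the shortest on average. With equal numbers of peaks from every list the mean was 3.18 and the exact permutation test gave p = 0.514. Other marked genes had 2.48 to 2.72 peaks, a difference of 0.760 ± 0.0990 (SD, n = 8; exact sign flip, p = 0.00781, adjusted p = 0.0104, above 0 in 8 of 8), and of 0.287 in the higher-scoring 50% of each list. From 22.3% to 26.6% of the marked Zfp genes had 5 or more peaks in a list, against 12.9% to 15.8% of the other marked genes.

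**Figure D1:**
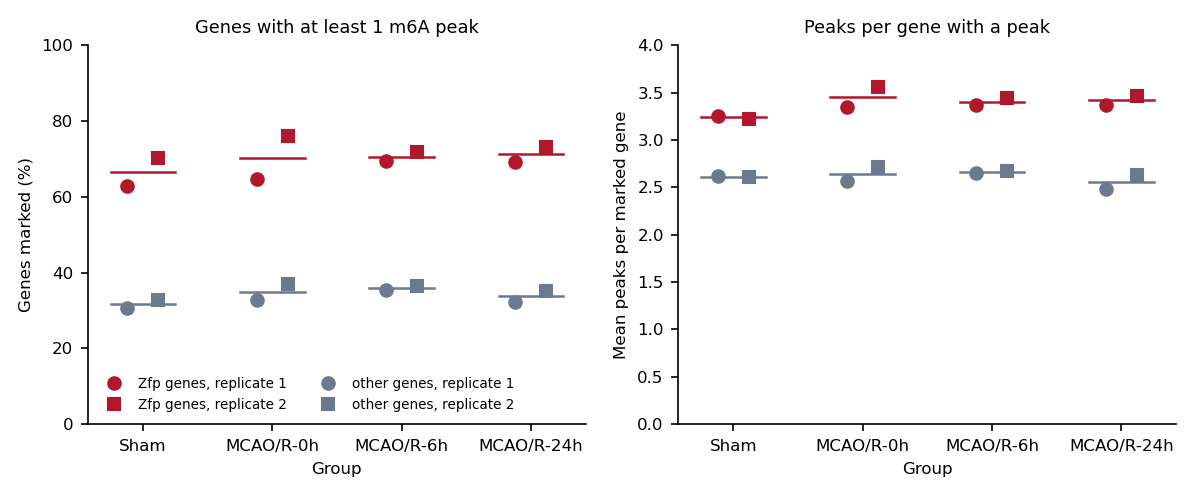
Left, percent of Zfp genes (red) and other protein-coding genes (grey) with at least 1 m6A peak in each of the 8 IP lists; right, mean number of peaks per marked gene; circles and squares are replicates 1 and 2, and lines are group means. Zfp genes lie above other genes in every list. In the left panel, the Zfp replicates of Sham and of MCAO/R-0h lie further apart than the Zfp group means do, and those of MCAO/R-6h and MCAO/R-24h lie closer.

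The genes with the most peaks were Zfp462, a chromatin protein with a role in neural development, Zfp318, needed for IgD expression in B cells, Zfp407, Zfp646 and Zfp292. Zfp462 had 17 and 16 peaks in Sham, 8 and 14 at MCAO/R-0h, 18 and 15 at MCAO/R-6h, and 15 and 13 at MCAO/R-24h, a mean of 14.5 per list. Only MCAO/R-0h replicate 1 was low in Zfp462. Zfp318 had 16, 11, 14, 12, 8, 10, 18 and 16 peaks in the same order. Its lowest values were those of MCAO/R-6h, while Sham overlapped with MCAO/R-0h and MCAO/R-24h. No test was made for single genes. The means of Zfp407, Zfp646 and Zfp292 were 11, 10.9 and 10.8 peaks per list. Zfp462 and Zfp646 had only 208 and 101 coding nt in the exon with the stop codon, few for this family.

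The layout of Zfp genes differs from that of other genes. The last coding exon, the exon that holds the stop codon, had a median of 1297 coding nt in Zfp genes (quartiles 811.5 and 1685) and 185 in other genes, and it held a median of 85.7% of the coding sequence against 16.8%. The coding sequences had a median of 10 finger patterns (quartiles 6 and 13.5, at most 36), counted as Cys, 2 to 4 codons, Cys, 12 codons, His, 3 to 5 codons and His in frame. Of the 419 genes, 368 had 3 or more patterns and 28 had none.

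Zfp genes were marked more often than other genes with a last coding exon of like length. In the 70 Zfp genes with under 500 coding nt there, 56.4% were marked on average over the 8 lists, against 34.7% of other genes. In the 63 with 500 to below 1000 nt it was 67.1% against 24.0%, in the 239 with 1000 to below 2000 nt 71.9% against 48.9%, and in the 47 with 2000 nt or more 82.2% against 54.9%. The Zfp share was above the other share in 8 of 8 libraries in each class (exact sign flip, p = 0.00781 in each, unadjusted). Within the family the mean share rose with each length class, a description for which no test was made. The other genes of a class were all those annotated, and whether they were transcribed in the tissue was not tested. The restriction to genes with a peak in at least 1 list was not repeated within length classes.

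The number of fingers gave a different picture. The 28 Zfp genes with no C2H2 finger pattern were marked at 33.0%, and other genes with no pattern at 33.6%. These 28 include Zfp36l1, Zfp36l2, Zfp36 and Zfp36l3 of the CCCH type, with peaks in 8, 7, 5 and 0 lists. They also include genes such as Zfp1003 and Zfp1009, which had peaks in 1 and 0 lists. Over the whole transcript they share 43.7% and 100% of 100-nt windows with other genes. For the coding part of the last coding exon the value is 100% in both, but that part has only 76 and 49 nt, less than a window. The part of shared sequence in this class was not tested. The difference between Zfp and other genes with no pattern was within the spread between libraries (log2 ratio -0.04 ± 0.21, SD, n = 8; exact sign flip, p = 0.609). With 6 to 10 patterns, 70.9% of 120 Zfp genes and 72.3% of 79 other genes were marked (log2 ratio -0.03 ± 0.07, p = 0.289, exact sign flip). With 1 to 5 patterns the shares were 67.7% and 59.3%, and Zfp genes were above in 8 of 8. With 11 to 15 they were 74.9% of 131 and 45.9% of 46, and with 16 or more 74.6% of 70 and 41.2% of 27. In related finger families outside the Zfp symbol, 89.3% of 42 Zbtb genes, 97.7% of 11 Zkscan genes and 44.1% of 19 Zscan genes were marked on average.

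**Figure D2:**
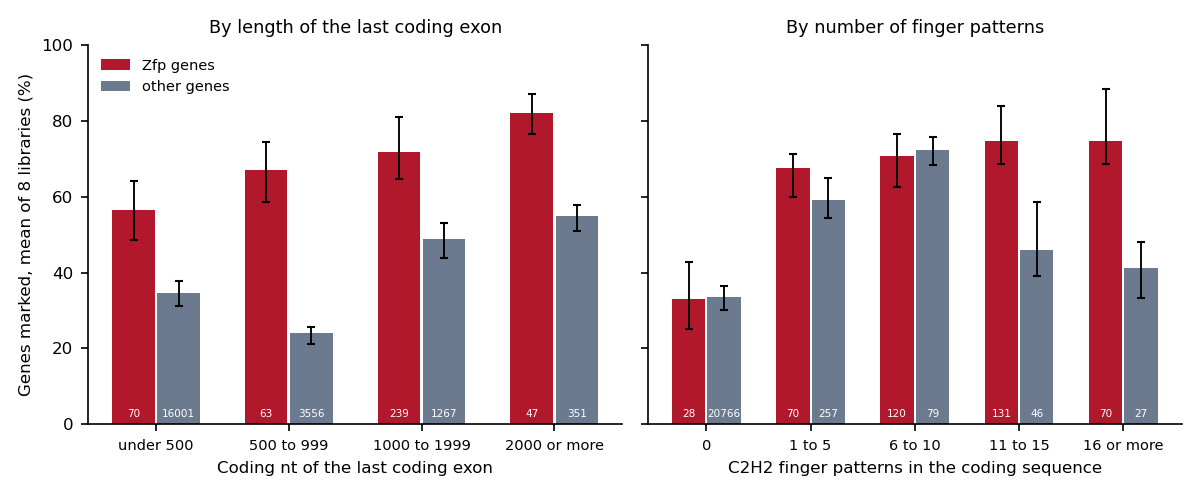
Percent of genes with a peak, as the mean of 8 libraries, by coding length of the last coding exon (left) and by number of C2H2 finger patterns (right), for Zfp genes (red) and other protein-coding genes (grey); lines run from the lowest to the highest library and numbers in the bars are genes. Zfp genes exceed other genes in each length class, while with 0 patterns or 6 to 10 patterns the bars lie at like heights.

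Sequence shared with other genes moved with missing peaks. The authors removed reads that map to several places, and many young Zfp genes have near copies. Of the 419 genes, 324 had no 100-nt window of the coding part of the last coding exon in common with a transcript of another gene, and 77.5% ± 3.93 of these were marked (SD over 8 libraries). In 73 genes with under 50% of windows shared it was 53.3% ± 7.41, and in 22 genes with 50% or more it was 9.66% ± 6.63. None of those 22 genes was marked in all 8 lists. Genes with near copies are therefore uncertain, and the part of read mapping in their missing peaks was not tested.

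The clusters on chromosomes 2 and 4 were marked least among chromosomes with more than 6 Zfp genes. On chromosome 2, 40.0% ± 4.58 of 35 genes were marked, with 14 in no list, and 13 of these 14 shared windows with another gene. On chromosome 4 the share was 28.9% ± 5.22 of 32 genes, with 18 in no list, 13 of them with shared windows. Chromosome 7, which holds 96 Zfp genes, had 78.5% ± 6.59 and 6 genes in no list. Chromosome 17 had 71.2% ± 5.29 of 46 genes, and chromosome 13 had 64.9% ± 10.0 of 41.

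In all, 63 Zfp genes (15%) had no peak in any list, against 47.0% of other genes, and 27 of the 63 shared no window with another gene. The unmarked genes with the longest coding part of the last coding exon were Zfp616 (2964 nt), Zfp473 (2417 nt), Zfp268 (2243 nt), Zfp36l3 (2178 nt) and Zfp808 (2071 nt). Zfp473 takes part in the 3′ end processing of histone mRNA, and Zfp36l3 is a member of the tristetraprolin family known from placenta. Zfp268 and Zfp808 shared 47.5% and 15.6% of windows with other genes, and Zfp616, Zfp473 and Zfp36l3 shared none. Whether these genes were transcribed in the tissue was not tested, since the input was not analysed here.

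Peaks of Zfp genes lay mainly in the last coding exon, as its length allows. The exonic centre of the peak fell into that exon in 77.7% and 77.6% of Zfp peaks in Sham, 76.9% and 80.2% at MCAO/R-0h, 75.5% and 77.1% at MCAO/R-6h, and 77.8% and 79.6% at MCAO/R-24h. Even placement along the same transcripts (the longest coding sequence of each gene) would give 73.7%. The groups overlapped (exact permutation test, p = 0.410). The log2 ratio of observed to even was 0.08 ± 0.02 (SD, n = 8; exact sign flip, p = 0.00781, adjusted p = 0.0104, above 0 in 8 of 8), a small excess, and 0.03 on the transcripts that the annotation calls canonical. For other genes 56.7% were observed and 53.0% were expected, a log2 ratio of 0.10 ± 0.03, and the ratio of Zfp genes was lower by 0.02 (exact sign flip, p = 0.0234, adjusted p = 0.0268, higher in 1 of 8 libraries), by 0.04 on canonical transcripts and by 0.05 in the higher-scoring 50% of each list. By this measure, which allows for the length of the exon, Zfp genes did not exceed other genes.

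Within that exon the peaks sat mainly in coding sequence. Its coding part held 54.4% ± 0.788 of Zfp peak centres, against 22.3% ± 0.751 in other genes (SD, n = 8 libraries). This contrast does not allow for length, since that part had a median of 1297 nt in Zfp genes and 185 nt in other genes. In the genes with 3 or more fingers, the finger array, from the first to the last pattern, held 44.9% ± 0.640 of the centres, where even placement gives 27.8%. The part of the last coding exon before the fingers held 15.9% ± 0.482 against 6.77%, and the part after them 5.07% ± 0.380 against 2.40%. Each of these 3 parts was above even placement in 8 of 8 libraries (exact sign flip, p = 0.00781 each, unadjusted). Relative to length, the stretch before the fingers had the highest ratio (log2 1.23 ± 0.06), above the finger array (0.69 ± 0.03).

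The untranslated ends were poor in peaks for their annotated length. Even placement counts the whole annotated UTR of the transcript used, with ties in coding length going to the longest transcript. Whether these UTRs were used in full was not tested, and placement by parts, including the finger array, was not repeated on canonical transcripts. The 3′ UTR in the last coding exon held 22.0% ± 0.979 of the centres against 43.9% for even placement, and the 5′ UTR 4.02% ± 0.743 against 10.8%, below in 8 of 8 libraries each (exact sign flip, p = 0.00781). Coding exons before the last coding exon held 7.84% ± 0.559 against 7.67%, within the spread (exact sign flip, p = 0.359). Cut into 5 equal parts from 5′ to 3′, the array held 20.0%, 19.9%, 20.6%, 18.6% and 20.9% of its centres, with SDs of 1.12 to 1.64. No end of the array stood out. Within 200 nt of the stop codon lay 14% to 16.4% of Zfp peak centres and 19.7% to 21.0% of those of other genes, a difference of -5.21 ± 0.846 percentage points (SD, n = 8; exact sign flip, p = 0.00781, adjusted p = 0.0104, lower in 8 of 8).

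**Figure D3:**
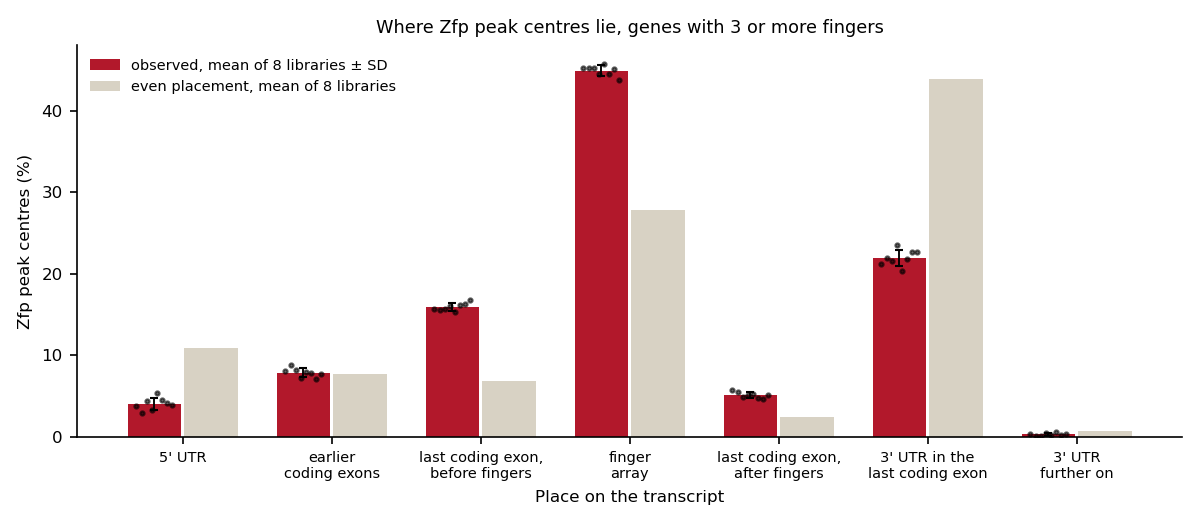
Percent of Zfp peak centres in 7 parts of the transcript in genes with 3 or more finger patterns, observed (red, mean of 8 libraries with SD, points are libraries) and under even placement along the same transcripts (beige). The finger array holds 44.9% where even placement gives 27.8%, and the 3′ UTR of the same exon 22.0% where even placement gives 43.9%.

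The bases under Zfp peaks were rich in RRACH, which was searched on the transcript strand. Peaks held 19.9 to 20.5 matches per kb, against 14 to 14.3 in the rest of the same transcripts outside every peak of the 8 lists. The log2 ratio was 0.52 ± 0.02 (SD, n = 8; exact sign flip, p = 0.00781, adjusted p = 0.0104, above 0 in 8 of 8). For GGACT, the form most often found methylated, it was 0.39 ± 0.05 with the same p, from 1.08 and 0.820 per kb. Against the rest of the last coding exon only, the log2 ratio was 0.68 for GGACT and 0.52 for RRACH, so the order of both turned. Among peaks of 150 to 174 exonic nt, 94.9% of Zfp peaks and 93.3% of other peaks held RRACH, 16.6% and 20.8% held GGACT, and 32.7% and 16.8% held AAACC, the linker match.

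Inside the finger arrays the 3 endings of the motif differed. Words ending in T (RRACT) had 5.49 per kb in peaks and 2.73 per kb outside, a ratio of 2.01 (1.86 to 2.13 over the libraries). Words ending in A had a ratio of 1.37, and words ending in C 1.04. AAACC had 4.51 per kb in peaks and 3.80 outside, a ratio of 1.19, so the linker match was nearly as dense in unmarked array as in marked array, although along whole transcripts its ratio was 2.06. RRACT directly before CACAC or CATAC, as in Zfp81 and Zfp322a, had 0.837 per kb in array peaks and 0.323 outside, a ratio of 2.65 (1.87 to 3.17), and RRACT elsewhere in the arrays 1.94 (1.84 to 2.04). These word counts are descriptions that were chosen after other values had been seen, and a match is not a measured m6A site.

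Zfp genes were also marked more steadily across lists. A peak was present in all 8 lists in 204 Zfp genes (48.7%), against 18.6% of other genes and a background of 19.2% over all protein-coding genes. Counting only genes with any peak, it was 57.3% of 356 Zfp genes and 35.1% of 11213 other genes. Peaks from different lists were merged into a region where their exonic parts touched on a strand, which gave 1833 Zfp regions among 52773. Of these, 260 (14.2%) were in all 8 lists, against 9.15% of regions of other protein-coding genes and a background of 8.97%. Another 871 (47.5%) were in 1 list only, against 52.2%. So a Zfp gene was often marked in every list while many of its peaks were not. Zfp peaks were longer, with a median exonic length of 125 to 175 nt per list against 100 to 125 nt, and the part of length in recurrence was not tested.

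Replicates of a group were little more alike than lists of different groups. The Jaccard index, the share of Zfp regions of a pair of lists that both hold, was 0.461 for the Sham pair, 0.432 for MCAO/R-0h, 0.484 for MCAO/R-6h and 0.470 for MCAO/R-24h. Within groups the mean was 0.462 ± 0.0219 (SD, n = 4 pairs), and between groups 0.450 ± 0.0158 (n = 24 pairs). The difference of 0.0114 was within the spread over all divisions (exact permutation test, one-sided, p = 0.0857, adjusted p = 0.429), and it was 0.0244 (p = 0.00952) without MCAO/R-0h replicate 1, 0.0186 (p = 0.0286) without MCAO/R-0h replicate 2 and 0.0137 (p = 0.0381) with equal numbers of peaks. With labels permuted only within replicate numbers, the same difference had p = 0.0417, the smallest that permutation allows. In other protein-coding genes the index was lower, 0.377 within and 0.364 between groups, and the difference of 0.0129 had p = 0.0190 (exact permutation).

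**Figure D4:**
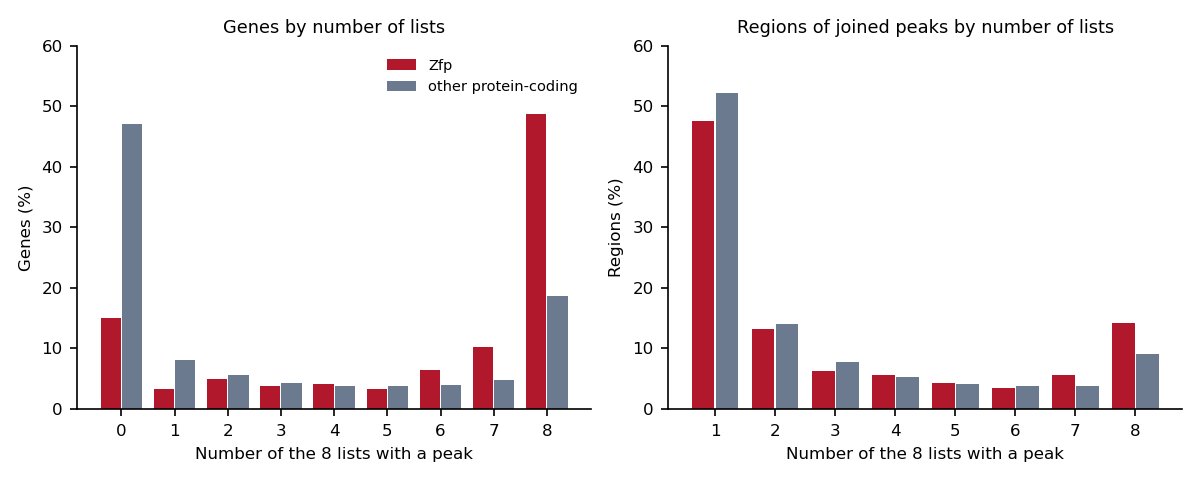
Percent of genes (left) and of joined regions (right) by the number of the 8 lists in which they had a peak, for Zfp (red) and other protein-coding genes (grey). Among Zfp genes 48.7% are in all 8 lists and 15% in none, while 47.5% of Zfp regions are in 1 list only.

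The 260 recurrent regions lay in 177 genes. The 10 whose lowest score percentile over the lists was highest were Zfp451, Zfp292, Zfp148, Zfp871, Zfp81, Zfp62, Zfp354c, Zfp322a, Zfp260 and Zfp445, with lowest percentiles of 99.8 down to 97.9, and 97.3 for the next gene. The score was assigned by the peak caller on a scale that is not defined, and it is used only as a rank among all peaks of a list.

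Zfp451, which codes for a SUMO E3 ligase, led. Its region of 2400 nt (chr1:33839788-33842187) had percentiles between 99.83 and 99.97, so it was near the top of every list. It lay in the last exon of a shorter Zfp451 transcript, an exon outside the transcript used for placement, with 984 of its nt coding. Zfp292, whose human counterpart is mutated in a neurodevelopmental disorder, had a region of 3500 exonic nt in 2 exon parts (chr4:34808588-34816317), with percentiles of 99.7 to 99.9. The centre of this region lay in the last coding exon, inside the finger array. That exon has 7083 coding nt.

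Zfp148, a factor that binds GC-rich promoters, had a region of 1225 nt (chr16:33316901-33318125) with percentiles of 99.6 to 99.8. Its centre lay in coding sequence, outside the finger array, at -201 nt from the stop codon. Zfp81, Zfp62 and Zfp354c, a KRAB repressor, had regions of 1575, 2218 and 1025 exonic nt with centres in their finger arrays, at percentiles of at least 99.3, 98.9 and 98.7. In Zfp322a, linked to stem cell self-renewal, a region of 2125 nt was centred at -277 nt from the stop codon. Zfp871 and Zfp260 were exceptions to the coding pattern. The region of Zfp871, of 1200 nt, was centred in the 3′ UTR, 306 nt after the stop codon, and that of Zfp260, a partner of Gata4 in heart, was centred in the 5′ UTR part of the last coding exon.

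By score, Zfp peaks as a whole did not stand apart. Their median percentile was 46.3 and 51.3 in Sham, 50.8 and 52.6 at MCAO/R-0h, 48.6 and 50.8 at MCAO/R-6h, and 49.1 and 52.7 at MCAO/R-24h. The median of other protein-coding peaks was 50.8 to 51.3. The difference of -0.871 ± 2.16 (SD, n = 8) was within the spread between libraries (exact sign flip, p = 0.305, above 0 in 3 of 8), and the groups overlapped (exact permutation, p = 0.676). The upper end was fuller, since 11.8% to 14.2% of Zfp peaks were at or above the 90th percentile of their list, against 9.96% to 10.2% of the others. Among peaks of the same exonic length, in classes of 25 nt, Zfp peaks ranked lower by 11.4 percentile points (exact sign flip, p = 0.00781), and among the higher-scoring 50% of each list they ranked higher by 1.91 (p = 0.00781, exact sign flip).

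Against Sham, gained and lost regions were as common in Zfp genes as anywhere. A region was called gained when both lists of a time held it and neither Sham list did, and lost in the reverse case. At MCAO/R-0h, 46 of 1304 Zfp regions were gained (3.53%, background 3.83%) and 21 lost (1.61%, background 1.87%). At MCAO/R-6h, 60 of 1277 were gained (4.70%, background 4.94%) and 21 lost (1.64%, background 2.02%). At MCAO/R-24h, 53 of 1292 were gained (4.10%, background 3.79%) and 26 lost (2.01%, background 2.76%). The Zfp shares lay near the background at each time. The 3 comparisons share the Sham lists, and 2 libraries against 2 cannot give a p below 0.333, so no test was made. The Sham lists were also shorter on average than those of each MCAO/R group, and the counts above cannot be told apart from that difference. With equal numbers of peaks from every list, gained and lost regions were 32 and 25 at MCAO/R-0h, 38 and 27 at MCAO/R-6h, and 46 and 28 at MCAO/R-24h. Since a call needs both replicates, leaving out any library of a comparison raised the counts by more than 1.5 times, to 75 to 338 gained and 38 to 183 lost.

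Few Zfp genes as a whole were newly marked. At MCAO/R-0h, 7 of 348 genes (2.01%, background 4.12%) had a peak in both lists and in neither Sham list, at MCAO/R-6h 10 of 338 (2.96%, background 5.41%) and at MCAO/R-24h 8 of 335 (2.39%, background 4.49%). In the reverse direction it was 5 genes at each time (backgrounds 1.61%, 1.74% and 2.54%). A gene with a peak in a Sham list cannot be newly marked, and Zfp genes had such a peak more often than other genes. The shares in both directions were not adjusted for this. Whether Zfp genes without a peak in Sham became marked less often than other such genes was not tested. Zfp408, whose human counterpart is linked to retinal disease, was newly marked at all 3 times and Zfp575 no longer marked at all 3, both named after their values were seen. Zfp408 had 0 and 0 peaks in Sham, 4 and 4 at MCAO/R-0h, 3 and 4 at MCAO/R-6h, and 2 and 4 at MCAO/R-24h. Zfp575 had 1 peak in each Sham list, at percentiles 31.1 and 9.47, and none in the others.

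The gained regions ranked highest by the lower of the 2 percentiles were named for each time. At MCAO/R-0h these were in Zfp91, an E3 ubiquitin ligase gene, in Zfp781a and in Zfp386. The region of Zfp91 had 50 nt (chr19:12772394-12772443) of coding sequence that also belongs to Gm44505, percentiles of 91.3 and 91.0 at MCAO/R-0h, and no peak in the other 6 lists. Zfp386 had a region of 500 nt (chr12:116023703-116024202) centred in its finger array, with no peak in Sham, 65.3 and 84.0 at MCAO/R-0h, 77.5 and 89.9 at MCAO/R-6h, and 64.8 and 54.5 at MCAO/R-24h. All 6 MCAO/R lists held it, as they did gained regions of Zfp831 and Zfp710, which are named after their values were seen. Percentiles were 5.9 to 64.9 in Zfp831 and 25.9 to 80.1 in Zfp710. Beside these 3 regions gained at all 3 times, 4 were lost at all 3, in Zfp831, Zfp575, Zfp287 and Zfp41. The share of all regions with such calls was not computed. Zfp386 itself was marked in all 8 lists.

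At MCAO/R-6h, Zfp386 was followed by Zfp263 (74.6 and 73.3) and Zfp646 (64.9 and 65.8). At MCAO/R-24h the regions were in Zfp398 (63.9 and 75.6), Zfp324 (59.6 and 66.1) and Zfp874b (70.2 and 59.4). Of these 5, only the region of Zfp398 was in no list outside its own time, and its 2 exonic parts summed to 125 nt.

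Among lost regions, Zfp866 stood first at both MCAO/R-6h and MCAO/R-24h. It had 2 regions of 75 nt each, at chr8:70231158-70231232 and chr8:70216051-70216125. The first had percentiles of 97.3 and 98.3 in Sham and 99.0 and 98.7 at MCAO/R-0h, the other 97.1, 98.3, 98.9 and 98.7, and neither was in any list at MCAO/R-6h or MCAO/R-24h. The ranks of both were nearly equal in every list that held them. The first lies in exon 2 and the other in exon 6 of the same 6-exon transcript of Zfp866, outside the transcript used for placement. Of their 51 windows of 25 nt, 5 in the first and 0 in the other occur in transcripts of another gene, and they share none with each other. Zfp866 was marked in all 8 lists, with 7 and 5 peaks in Sham, 6 and 6 at MCAO/R-0h, 2 and 4 at MCAO/R-6h, and 3 and 3 at MCAO/R-24h.

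The other named lost regions were in Zfp644, a partner of the H3K9 methyltransferase G9a, Zfp287 and Zfp180 at MCAO/R-0h, in Zfp428 at MCAO/R-6h and in Zfp827 at MCAO/R-24h. Zfp827, which recruits the NuRD complex, had a region of 175 exonic nt with percentiles of 90.6 and 81.8 in Sham, 73.4 and 83.1 at MCAO/R-0h, and 86.2 in MCAO/R-6h replicate 1, and no peak in the remaining 3 lists. The lost regions of Zfp644, Zfp287 and Zfp180 at MCAO/R-0h were present again in at least 1 list at both later times.

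**Figure D5:**
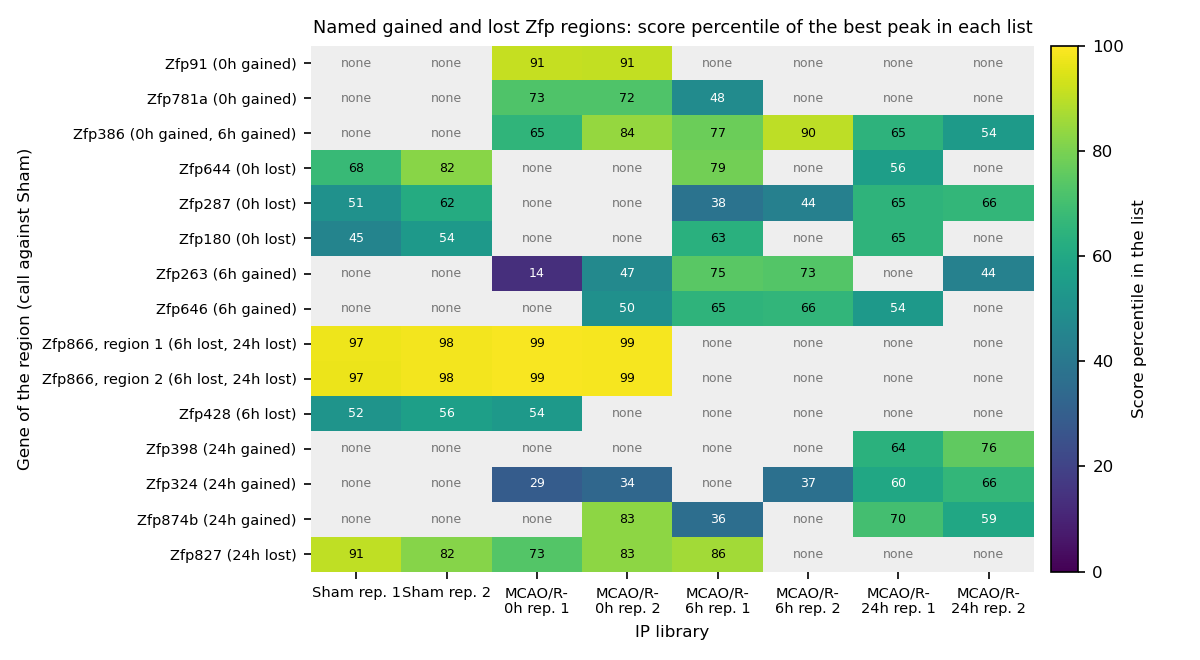
Score percentile of the best peak in each of the 8 lists for the named gained and lost Zfp regions, 1 row per region, with "none" where the list held no peak. The 2 regions of Zfp866 fill the 4 Sham and MCAO/R-0h columns at 97 or above and are empty in the 4 later ones, and the region of Zfp386 fills all 6 MCAO/R columns.

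Members of known function were read from fixed lists. Of 8 CCCH or RNA-associated genes, 4 were in all 8 lists, 3 in some and 1 in none, where 48.7% of all Zfp genes and 19.2% of protein-coding genes were in all 8. Zfp36 codes for tristetraprolin, which binds AU-rich elements and speeds the decay of cytokine mRNAs. It had 0 and 0 peaks in Sham, 1 and 1 at MCAO/R-0h, 3 and 2 at MCAO/R-6h, and 0 and 1 at MCAO/R-24h, so Sham and MCAO/R-24h replicate 1 were the lists without a peak. The best percentile of Zfp36 ran from 3.3 to 86.5, highest in MCAO/R-6h replicate 1. Its relative Zfp36l1 had a peak in 8 lists and Zfp36l2 in 7, all but Sham replicate 1. Zfp638, an RNA-binding partner of retroelement silencing, had 8 to 10 peaks per list at percentiles of 96.0 to 99.7. Zfp106 had 2 to 6 peaks, and Zfp207, a spindle protein, 1 in each list. Zfp326, a splicing factor of the DBIRD complex, was marked in 3 lists, and Zfp36l3 in none.

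Of 6 KRAB genes known for imprints or retroelements, 3 were in all 8 lists and 3 in some, against 48.7% of all Zfp genes and 19.2% of protein-coding genes in all 8. Zfp445, which maintains imprints, had 5 and 9 peaks in Sham, 11 and 5 at MCAO/R-0h, 5 and 6 at MCAO/R-6h, and 5 and 6 at MCAO/R-24h, with best percentiles of 98.1 to 99.4. Zfp809, which silences murine leukaemia virus, had 2 to 4 peaks at best percentiles of 91.6 to 99.4. Zfp708 was also in all 8, at 26.3 to 80.1. The second imprint keeper, Zfp57, was in 3 lists at 8.5 to 28.4, Zfp568 in 4 and Zfp932 in 4. Those 3 genes thus had few and low-ranking peaks.

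Of 14 neural and developmental C2H2 genes, 9 were in all 8 lists, 4 in some and 1 in none, beside the same 48.7% and 19.2%. Zfp281, a regulator of pluripotency, reached best percentiles of 95.8 to 99.9, and Zfp24, needed for myelination, 97.3 to 99.6. Zfp804a, a psychiatric risk gene, had 3 to 6 peaks at 96.4 to 99.8. Zfp189 (91.5 to 99.7), Zfp142 (34.5 to 93.0) and Zfp536 (54.9 to 85.0), which restrains neuronal differentiation, were in all 8 as well. Zfp521 and Zfp423 were each in 7 lists with best percentiles up to 75.8 and 47.7, Zfp804b in 7 and Zfp335, a microcephaly gene, in 6. Zfp335 had no peak at MCAO/R-0h and 1 to 3 peaks in the lists of the other groups. Zfp365, which has no C2H2 pattern by the count used here, was in none.

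Of 12 co-repressor genes that act with KRAB proteins and are not Zfp genes themselves, 4 were in all 8 lists, against 19.2% of protein-coding genes. These were Setdb1, the H3K9 methyltransferase, its partner Atf7ip, Morc3 and Smarcad1. Setdb1 had 2 to 6 peaks per list at best percentiles of 61.4 to 89.0, and Atf7ip 3 to 11 at 81.8 to 95.4. Trim28, which binds the KRAB box, had no peak in any list, and neither did the heterochromatin proteins Cbx3 and Cbx5 or Hdac2. Chd4 was in 4 lists, Cbx1 in 5, Hdac1 in 2 and Chd3 in 1.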

How the data were processed

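The authors trimmed reads with Trim Galore, aligned them to GRCm39 with HISAT2, kept uniquely mapped reads (samtools) and ran exomePeak2, with cutoffs of 0.05 on the p-value and 0.5 on the log2 fold change, to list peaks. The stated fragment length differs between the labels and the methods. The deposited value of each peak is a score, made by the authors' peak caller on an undefined scale, and was used only as a rank within a list. Depth is unknown, and precision comes from 2 replicates per group.

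Each peak is deposited as 1 block with introns. Its exonic part was rebuilt from GENCODE M39 exons with Python 3.11.15, numpy 2.4.6 and scipy 1.17.1; 176 protein-coding genes without a usable coding transcript were left out, 1 peak touched more than 1 Zfp gene, and 52 Zfp peaks overlapped another gene more. Placement used, for each gene, the transcript of longest coding sequence. Groups were compared by exact permutation over all divisions into 4 pairs (smallest p 0.00952), with Benjamini-Hochberg adjustment over 5 results, and Zfp with other genes by exact sign flips over 8 libraries (adjusted over 8 tests). These tests speak of the spread between libraries, which share genes. Scripts were tested on simulated data.

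Members, lists and tests were chosen with earlier results of these data known. Genes were named by rule: the 10 leading recurrent regions, the 5 genes with most peaks, the 3 gained and 3 lost regions of highest rank per time, the 5 unmarked genes with the longest last coding exon, and the fixed lists. Alternatives were leaving out each library, equal numbers of peaks, the higher-scoring 50%, the gene of most overlap, other joining rules, transcripts and controls, and a replicate block. For motifs, finger arrays alone were added as an alternative after the data were seen.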

Additional observations from a re-analysis of the deposited data

How the results depend on the processing

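The excess of marked Zfp genes, of peaks per gene and of RRACH, and the placement in the last coding exon, kept direction and side of the threshold under each alternative run for them, but several shrank: the log2 ratio of marked shares from 1.03 to 0.47 (long last coding exons) and 0.35 (genes with a peak), the difference in peaks per gene from 0.760 to 0.287 (higher-scoring 50%), and the last-exon ratio from 0.08 to 0.03 (canonical transcripts). Without MCAO/R-0h replicate 1 the groups differed in peaks per marked gene (mean 3.39, exact permutation p = 0.0286; means of 3.35 to 3.4 over the libraries left out). The Jaccard difference passed the threshold without MCAO/R-0h replicate 1 (0.0244, p = 0.00952) or replicate 2 (0.0186, p = 0.0286), within a range of 0.00562 to 0.0244 over the libraries left out, and with equal numbers of peaks (0.0137, p = 0.0381, exact permutation). Correlations of same-numbered deviations were low (0.00445 to 0.0364), but replicate numbers still carried a shift. In every group replicate 2 had more peaks, more marked Zfp genes and a higher median score percentile of Zfp peaks than replicate 1. Permutation over all divisions counts this shift as spread between replicates. With a replicate block, the Jaccard difference of 0.0114 had p = 0.0417 (exact permutation within replicate numbers), the smallest it allows. No other call changed, and for the score rank p was 0.25 with the block and 0.676 without it (exact permutation in both). The score difference was 1.91 in the higher-scoring 50% of each list and -11.4 within length classes; by construction the first compares only high ranks and the other removes length. Regions in all lists were 15.5% to 16.3% with 1 library left out, 17% with equal numbers and 21.8% in the higher-scoring 50%, and regions in 1 list 42.2% and 28.7%. With the higher-scoring 50%, gained and lost regions were 29 and 3 at MCAO/R-0h, 33 and 8 at MCAO/R-6h and 15 lost at MCAO/R-24h, and with equal numbers 38 were gained at MCAO/R-6h. Leaving out 1 library, where a call needs fewer lists, gave 75 to 338, 97 to 256 and 89 to 276 gained and 38 to 157, 45 to 178 and 44 to 183 lost at the 3 times.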
